A study of Mus musculus with 21 samples.

Results

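The difference between genotypes in the day 6 response was the day 6 minus day 0 change in Mdr2 knockout liver minus the same change in control liver, here called the interaction. It was taken across all measured genes from 15 of the 21 arrays of the series, chosen by genotype and day alone. These were 3 KO livers on day 6 (mice 312, 332 and 337), 6 KO lobes on day 0 (mice 250, 254, 258, 312, 332 and 337), 3 control livers on day 6 (mice 303, 392 and 393) and 3 control lobes on day 0 (mice 263, 265 and 303). All were males aged 9 months that underwent a 30% partial hepatectomy; the lobe taken at surgery was the day 0 sample, so neither genotype had an unoperated group on day 6. KO mice were Mdr2-/- on strain FVB129P2 and controls were FVB129P2/FVBNJ, so genotype and strain background cannot be told apart. Replicates within a group were separate mice, and 3 KO mice and 1 control mouse gave both days.

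Mdr2, the product of Abcb4, moves phosphatidylcholine into bile; without it bile salts damage the bile ducts, and the liver develops inflammation, scarring and later tumours. After resection of liver, the remaining hepatocytes re-enter the cell cycle: origins are licensed by loading the MCM helicase, DNA is copied in S phase, and cells divide in mitosis. Transcription of the licensing and replication genes is driven mainly by E2F factors, and that of many mitotic genes runs later, through the CHR promoter element.

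Abcb4 stood at 8.02, 7.25 and 7.93 in KO livers on day 6 and at 7.59 to 8.96 in KO lobes on day 0, against 10.20, 10.08 and 10.16 in control livers on day 6 and 9.68, 10.18 and 9.51 in control lobes on day 0 (deposited log2 values in order of mouse number, where 1 unit is a 2-fold difference). It was lower on every KO array than on every control array, and its day 6 change did not differ between genotypes by the test (interaction −0.83 ± 0.42 SE, limma adjusted p = 0.745). The sources used here do not say which part of the gene the probes cover relative to the deletion. Hepatocyte markers averaged 14.08 to 14.28 in KO livers on day 6 and 13.89 to 14.22 in control livers on day 6, and the 5 T and NK cell markers (Cd3e, Cd3g, Cd8a, Cd4 and Nkg7) reached a mean of at most 2.67 on any array. A wider T and NK cell list had 3 tested genes, Gzmb, Klrk1 and Ptprc, of which Ptprc is a general leukocyte gene. Their centred mean was 1.70, 2.31 and −0.45 in KO livers on day 6 and −0.56 to −0.10 in KO lobes. It was 0.36, 1.31 and −0.82 in control livers on day 6 and −0.87 to −0.56 in control lobes. Of the 3, 0 passed for the interaction. Their part in other results was not tested. Signs of short RNA were largest in KO day 0 337 and control day 6 303. There the Gapdh 3′ signal exceeded the 5′ signal by 2.03 and 0.94 log2 units. On the other 13 arrays the difference did not exceed 0.17. For beta-actin the order was the other way, at 2.48 in KO day 0 337 and 2.72 in control day 6 303, against at most 1.88 on the other 13.

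Of the genes tested for DNA replication and mitosis, 24 of 58 rose by day 6 in control liver and 0 in KO liver by the test. Over all genes 2.84% rose in control liver and 0.0834% in KO liver, so the 0 in KO liver is near the share of all genes. Among the genes whose day 6 change differed between genotypes were 10 of the 58. Without the control day 6 arrays, 48 of the 58 still passed the floor for testing (above log2 4 on at least 3 arrays), and 8 of these 48 were called. Of 7191 genes tested, 17 had an interaction past an adjusted p of 0.05 (0.236% of the genes tested). The change was lower in KO than in control liver for 16 of them (0.223%) and higher for 1 (0.0139%). The 16 were Mcm6, Mcm5 and Mcm7 (subunits of the replicative helicase), Prim1 (the small primase subunit), Rfc4 (clamp loader), Rpa2 (single-stranded DNA binding), Pclaf (a PCNA-binding factor), Dnajc9 (a histone co-chaperone), Mki67 (the proliferation antigen Ki-67), Top2a (topoisomerase II alpha), Smc2 (condensin), Stmn1 (stathmin, which destabilises microtubules), Kifc3 (a kinesin), Lgals1 (galectin-1), Acot9 (a mitochondrial acyl-CoA thioesterase) and Cyb5r1 (a cytochrome b5 reductase family member). Kifc3, the smallest of the 16 differences, was named after its value was seen. At an unadjusted p under 0.05, 369 genes were lower (5.13%) and 144 higher (2%). Adding the 2 day 2 groups to the model gave 12 calls, 11 of them among the 17.

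The count depended on single animals. Leaving out KO day 6 312 gave 7 calls, KO day 6 332 gave 11, control day 0 265 gave 8 and control day 6 303 gave 50, while the other 11 arrays left it between 13 and 25. Treating the mouse as a random block gave 20 calls, including all 17, and a fixed block for the mouse, which left 2 residual degrees of freedom, gave 0 by limma (483 at an unadjusted p under 0.05). Acot9, Mcm7, Pclaf, Prim1, Rpa2, Dnajc9 and Smc2 passed whichever single array was left out. The other 10 missed the threshold when KO day 6 312 was left out, and all of these but Mcm6 missed it when control day 0 265 was. Leaving out KO day 6 332 ended the calls of Cyb5r1, Klf1, Lgals1, Top2a, Kifc3, Rfc4 and Stmn1. Of the other arrays, leaving out KO day 0 254 or 337 or control day 0 303 ended the call of Lgals1, and leaving out KO day 6 337, control day 0 303 or control day 6 392 ended that of Top2a. The call of Klf1 ended when control day 6 392 or 393 was left out, and that of Kifc3 when KO day 0 254 or 312, KO day 6 337 or control day 6 392 was. Rfc4 and Stmn1 passed in 3 of the 15 fits each, with adjusted p up to 0.151 and 0.117.

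**Figure D1:**
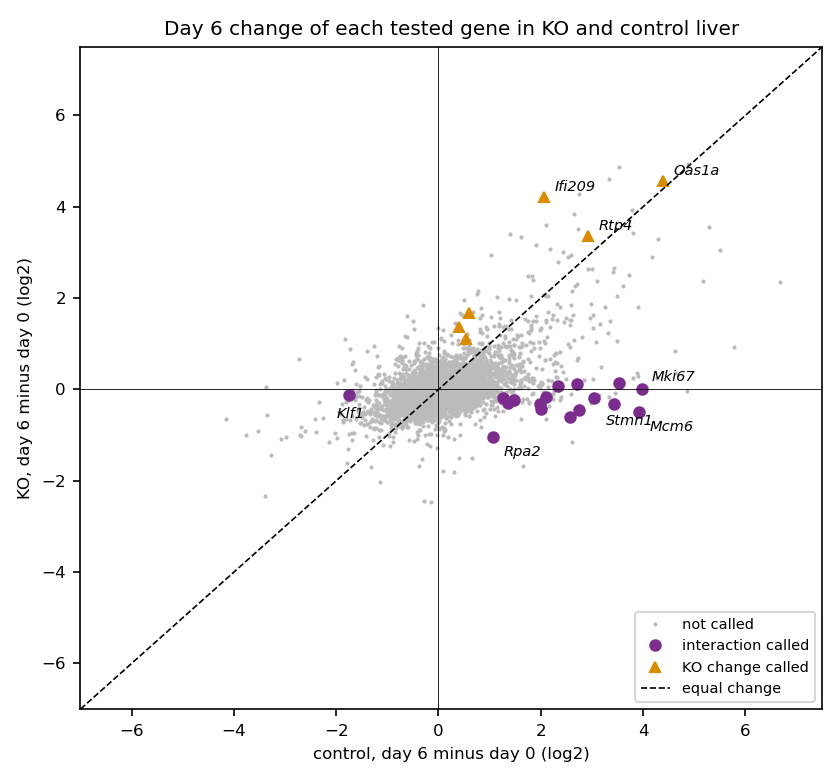
Each point is 1 of 7191 genes, with its day 6 minus day 0 change in KO liver (vertical, log2) against that in control liver (horizontal, log2). Purple circles, the 17 genes with a called interaction, lie near 0 on the KO axis with 16 to the right of 0 on the control axis; orange triangles are the 6 genes called in KO liver.

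All 16 rose in control liver from day 0 to day 6 by the test in the control arm, where 204 of all genes did so (2.84%). The KO change passed in 0 of them, and in only 6 of all genes (0.0834%). The control rise ran between 1.07 (Rpa2) and 3.97 (Mki67) log2 units, and the KO change between −1.04 (Rpa2) and 0.13 (Top2a). The KO change lay within 0.5 of 0 for 14 of the 16 and for 6396 of all 7191 genes, so the 16 were near the share of all genes. The control arm shares its arrays with the interaction, so these counts describe where the difference lay and are not a second test. In KO lobes on day 0 all 16 already read above control lobes on day 0 (3724 of all 7191 genes did), 13 of them past the threshold (637 of all genes, 8.86%). In KO livers on day 6, 13 of the 16 read below control livers on day 6 (3783 of all 7191 genes did). Of the 16, 9 passed as lower (69 of all genes, 0.96%) and Acot9 passed as higher (115 of all genes, 1.6%). The interaction is the day 6 gap between genotypes minus the day 0 gap, so choosing genes by a lower interaction itself favours both of these signs.

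Mcm6 had the largest interaction in size among the 17 called genes. It stood at 5.04, 5.37 and 4.93 in KO livers on day 6, and KO lobes on day 0 ran from 4.82 to 6.64 with a median of 5.38. Control livers on day 6 read 8.13, 6.68 and 6.37 (mice 303, 392 and 393), against 2.53, 3.99 and 2.88 in control lobes on day 0. Within KO the days overlapped, while all 3 control livers on day 6 lay far above the 3 control lobes and above every KO liver of that day. The interaction was −4.42 ± 0.68 SE (limma adjusted p = 0.0122), with a KO change of −0.49 and a control change of 3.93. In the mice sampled on both days, Mcm6 changed by −0.28, −0.06 and −0.33 in KO mice 312, 332 and 337, against 5.25 in control mouse 303.

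Mcm7, another helicase subunit, had control lobes within 0.12 of each other. It stood at 7.28, 6.96 and 7.30 in KO livers on day 6 and at 7.20 to 8.03 in KO lobes on day 0, median 7.40. The control livers read 9.13, 8.34 and 8.87 on day 6, against 6.78, 6.73 and 6.85 on day 0. Every control liver on day 6 exceeded each of the other 12 arrays of the comparison, with an interaction of −2.31 ± 0.30 SE (limma adjusted p = 0.00596). Mcm5 read 2.80 to 3.46 in KO livers on day 6, 2.67 to 3.87 in KO lobes, 4.95 to 6.44 in control livers on day 6 and 2.35 to 2.55 in control lobes. It thus exceeded log2 4, the floor set for testing, on the 3 control day 6 arrays alone, and passed that floor only through them (interaction −3.25 ± 0.52 SE).

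Prim1, whose product starts each new DNA strand, read 5.67, 5.36 and 5.23 in KO livers on day 6 and 5.69 to 6.43 in KO lobes on day 0, median 5.99. It read 6.85, 7.18 and 7.44 in control livers on day 6, against 4.61, 5.5 and 3.64 in control lobes. The KO livers lay below all KO lobes, by a narrow margin (5.67 against 5.69), and the control livers above all control lobes. The interaction was −3.18 ± 0.47 SE (limma adjusted p = 0.00864), but the KO change of −0.60 did not itself pass (limma adjusted p = 0.703). Rpa2 had the same layout: 4.28, 3.96 and 4.2 in KO livers on day 6, 4.71 to 5.63 in KO lobes, 5.66, 5.30 and 5.36 in control livers on day 6, and 4.31, 4.55 and 4.24 in control lobes. Its KO change of −1.04 was the largest of the 16 and missed the threshold (adjusted p = 0.0765). The interaction was −2.11 ± 0.29 SE (limma adjusted p = 0.00644). Prim1 and Rpa2 were the 2 of the 16 lower genes whose KO days did not overlap, as was so for 253 of all 7191 genes.

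Mki67, present in cycling cells and absent from resting ones, read 5.03, 5.0 and 5.07 in KO livers on day 6 and 4.2 to 5.96 in KO lobes on day 0, median 5.14. Control livers on day 6 read 5.81, 6.75 and 8.05 (mice 303, 392 and 393), against 3.08, 2.78 and 2.83 in control lobes. The 3 KO livers were almost identical, the 3 control livers were spread over more than 2 log2 units, and both KO means, 5.03, lay between the control means of 6.87 on day 6 and 2.90 on day 0. The interaction was −3.97 ± 0.62 SE (limma adjusted p = 0.0140). Top2a read 3.17 to 3.49 in KO livers on day 6 and 2.94 to 3.97 in KO lobes, against 4.82 to 7.05 in control livers on day 6 and 2.11 to 2.88 in control lobes (interaction −3.40 ± 0.57 SE, limma adjusted p = 0.0210). Like Mcm5, it passed the floor only through the control day 6 arrays, as did 75 of all genes tested.

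Among called genes outside the cell cycle lists, 3 showed another layout, with KO liver high on both days. Acot9, with the smallest p of all genes, read 7.52, 7.29 and 7.33 in KO livers on day 6 and 6.97 to 7.60 in KO lobes on day 0, median 7.26. It read 5.73, 5.74 and 5.73 in control livers on day 6, against 3.43, 3.09 and 2.54 in control lobes. The KO arrays all lay above the control arrays, so the control change of 2.71 closed part of a day 0 gap of 4.25 while KO liver changed by 0.11 (interaction −2.60 ± 0.29 SE, limma adjusted p = 0.00236). Lgals1, which is raised in scarred and transformed liver, read 9.99 to 10.92 in KO livers on day 6, 10.21 to 11.07 in KO lobes, 9.32 to 10.01 in control livers on day 6 and 7.13 to 7.91 in control lobes (interaction −2.27 ± 0.40 SE, limma adjusted p = 0.0265). Kifc3 read 5.77 to 5.95 in KO livers on day 6, 5.83 to 6.40 in KO lobes, 5.10 to 5.41 in control livers on day 6 and 3.55 to 4.19 in control lobes (interaction −1.46 ± 0.26 SE, limma adjusted p = 0.0265).

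Klf1, an activator of erythroid genes, was the 1 gene with a higher interaction, at 1.64 ± 0.28 SE (limma adjusted p = 0.0245). It read 2.62 to 3.03 in KO livers on day 6, 2.77 to 3.36 in KO lobes and 3.04 to 3.34 in control livers on day 6, against 4.58, 4.75 and 5.36 in control lobes on day 0. Only the control lobes exceeded log2 4, so Klf1 was tested only through the arrays where it was high, and its value gives the fall in control liver rather than any change in KO liver.

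**Figure D2:**
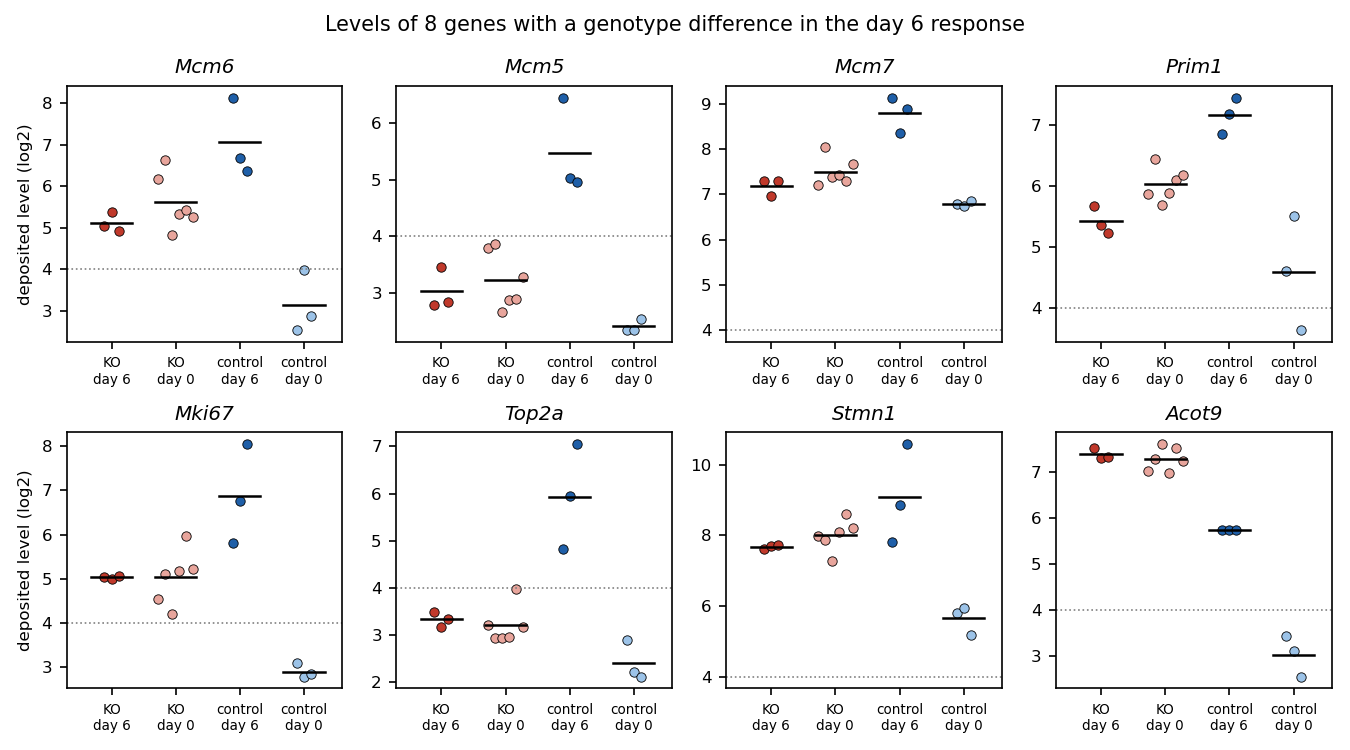
Deposited log2 levels of 8 genes on each array; points are livers, black bars are group means, and the dotted line is log2 4, the floor for testing. For 7 of the genes the 3 control livers on day 6 have the highest group mean, and for Acot9 the KO groups do.

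Of the 16 lower genes, 6 (Mcm6, Mki67, Top2a, Mcm5, Smc2 and Acot9) read at or under log2 4 on all control day 0 arrays, where levels are near the array's background, so the size of their control rise is uncertain. Of 9 other probe sets for 7 of the called genes that passed the floor, all 9 had an interaction below 0 and 5 were called when every probe set was tested. The 5 belonged to Mcm7, Lgals1 and Rfc4. The other sets of Mcm6 (−3.29, limma adjusted p = 0.0906), Prim1 (−2.23, 0.0683), Rpa2 (−1.07, 0.635) and Stmn1 (−1.20, 0.655) were not called. In bulk liver, fewer cycling cells and less of these RNAs per cycling cell cannot be told apart.

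The wider cell cycle lists followed the called genes in direction. Of 18 licensing genes (the MCM helicase and its loaders), 12 were tested: 3 passed as lower (Mcm5, Mcm6 and Mcm7), 9 did not pass, and the median interaction was −2.11, from a median change of −0.28 in KO and 2.00 in control liver. Of 30 genes for polymerases, the sliding clamp and nucleotide supply, 23 were tested: Prim1, Rfc4 and Rpa2 passed as lower and 20 did not pass, with a median of −0.79. Of 40 genes of G2 phase and mitosis, 23 were tested: Mki67, Top2a, Smc2 and Stmn1 passed as lower and 19 did not pass, with a median of −3.20, from −0.02 in KO and 2.98 in control liver. The median over all genes tested was −0.05. Together 10 of 58 tested members passed as lower (0.223% of all genes did), and 40 were lower at an unadjusted p under 0.05 (5.13% of all genes). As higher 0 passed, which is near the share of all genes, 1 of 7191. Of the 58, 10 passed the floor only through the control day 6 arrays, Mcm5 and Top2a among them. Entry by that route favours a lower interaction, though not each of the 10 was called. Of the other 48, 8 passed as lower and 32 were lower at an unadjusted p under 0.05, with a median of −1.61. Counted over all members on the array, with no floor, the medians were −1.55 for licensing, −0.79 for replication and −2.26 for mitosis.

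These counts moved with single arrays too: of the 58 members, leaving out control day 6 303 gave 22 lower calls, KO day 6 312 gave 4, control day 0 265 gave 5 and both arrays of mouse 337 gave 2. The median over the 58 kept its sign each time, between −2.07 and −1.35 over the 15 arrays left out in turn. Cdk1, the mitotic kinase, had an interaction of −4.27 ± 0.93 SE that did not pass (limma adjusted p = 0.106) and passed once control day 6 303 was left out (0.00317). Cdc20, an activator of the anaphase-promoting complex, named after its values were seen, behaved likewise at −4.89 ± 1.23 SE (adjusted p = 0.163; 0.0117 without control day 6 303). Mcm2 had −2.39 ± 0.55 SE (adjusted p = 0.125; 0.0196 without control day 6 393).

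The 3 control livers on day 6 were not alike in which phase they expressed. For licensing genes, the mean over the list, with each gene centred on the 15 arrays, was 1.71 in control day 6 303, 0.69 in 392 and 0.92 in 393, against −0.73 to −0.28 in control lobes on day 0. For mitotic genes the same mean was −0.24 in 303, 1.53 in 392 and 3.55 in 393, against −1.54 to −1.20 in control lobes. Of the 3, mouse 303 was thus highest for licensing and lowest for mitosis, and mouse 393 was highest for mitosis. In KO livers on day 6 the licensing mean was −0.37, −0.35 and −0.59 and the mitotic mean 0.12, −0.08 and −0.17 (mice 312, 332 and 337), both inside the range of the 6 KO lobes. For polymerase and clamp genes the 3 control livers agreed, at 0.64, 0.59 and 0.63, and lay above each of the other 12 arrays. The array of mouse 303 also carried the larger Gapdh 3′ excess, whose part in its levels was not tested. A fit with the beta-actin 3′ minus 5′ difference of each array as a covariate gave 17 interaction calls, 16 of them among the 17. In that fit 11 of the 58 cell cycle members passed as lower, with a median of −2.14. The 3 control livers lay above all 3 KO livers for licensing and replication genes, and 2 of them, 392 and 393, did so for mitotic genes.

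On day 2 the licensing mean was −0.06, −1.0 and −0.42 in KO livers and −0.22, −0.54 and 0.17 in control livers, all under the 3 control livers on day 6. The mitotic mean was −0.96, −1.05 and −0.21 in KO livers on day 2 and −1.01, −1.03 and −1.20 in control livers on day 2, all under control day 6 392 and 393. These day 2 values are a description, and 2 of the 3 control livers on day 2 had Gapdh 3′ excesses of 1.58 and 9.5.

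**Figure D3:**
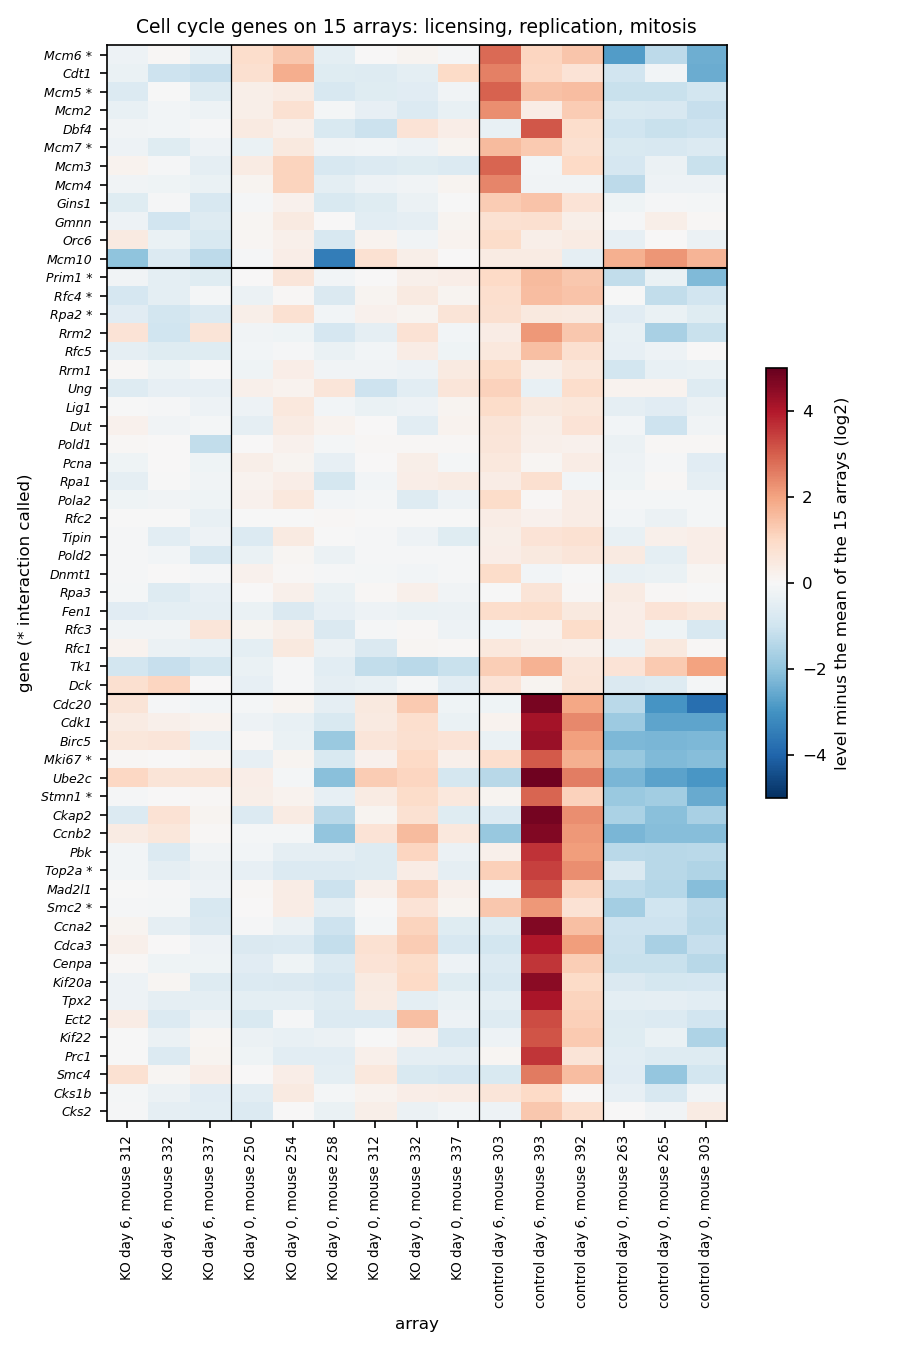
Rows are the 58 tested genes for licensing, replication and mitosis (top, middle and bottom blocks), columns are the 15 arrays in 4 groups, and colour is the log2 level minus the gene's mean over the 15 arrays; stars mark the 10 called genes. Licensing genes are reddest in control day 6 303 and mitotic genes in control day 6 393, and the KO day 6 columns stay near 0.

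**Figure D4:**
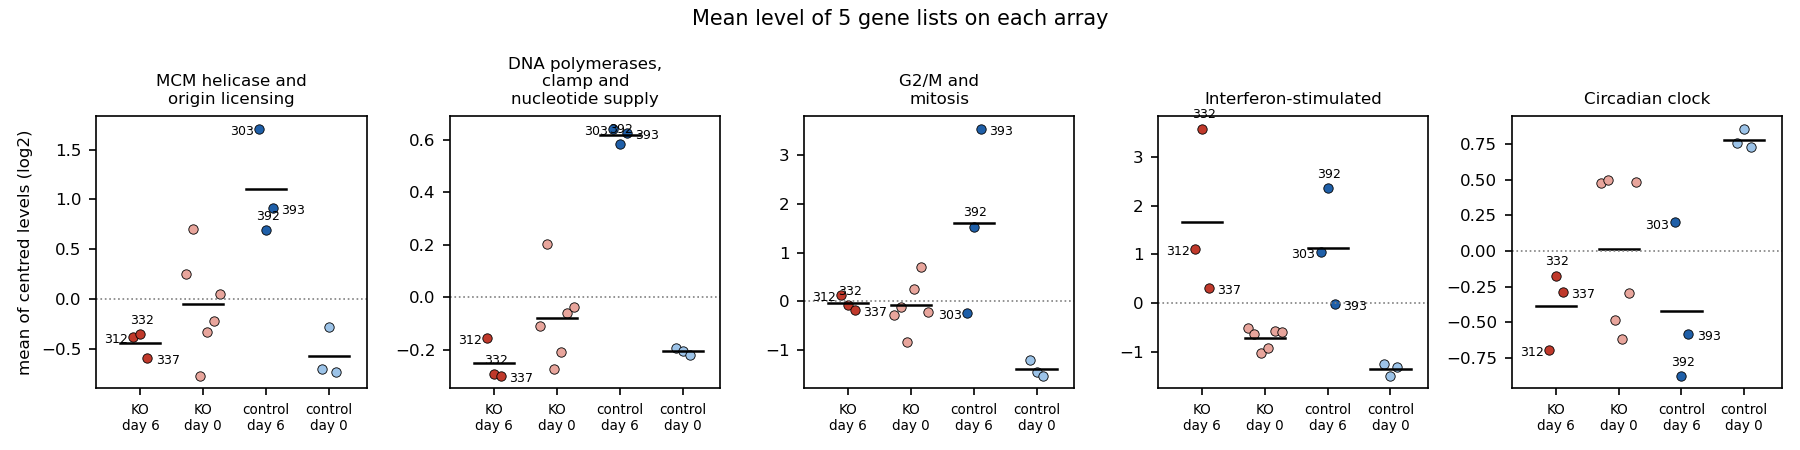
Mean centred log2 level of 5 gene lists on each array (points), with group means as bars and mouse numbers beside the day 6 livers. In the first 3 panels the control day 6 mean is the highest group mean; in the interferon panel both day 6 groups lie above their day 0 lobes.

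Promoters of 5 called genes are shown, 3 of licensing and 2 of mitosis, with the element named above for each kind. Sequences are from RefSeq (assembly GRCm38.p6), the 250 bases before the annotated start: chr8:75109259-75109508 on the plus strand for Mcm5, chr1:128359706-128359955 on the minus strand for Mcm6, chr5:138171884-138172133 on the minus strand for Mcm7, chr7:135716380-135716629 on the minus strand for Mki67 and chr11:99024190-99024439 on the minus strand for Top2a. Each is printed 5′ to 3′ along the gene. Capitals mark matches on either strand to 4 E2F octamers (TTTCCCGC, TTTCGCGC, TTTGCCGC and TTTGGCGC) in the Mcm genes, where matches can overlap on opposite strands, and to the CHR hexamer TTTGAA in Mki67 and Top2a.
Mcm5: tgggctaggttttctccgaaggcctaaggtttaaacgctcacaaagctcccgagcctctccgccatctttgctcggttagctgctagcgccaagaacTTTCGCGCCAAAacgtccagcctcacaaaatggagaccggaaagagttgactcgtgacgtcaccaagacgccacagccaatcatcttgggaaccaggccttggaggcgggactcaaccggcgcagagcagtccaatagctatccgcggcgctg
Mcm6: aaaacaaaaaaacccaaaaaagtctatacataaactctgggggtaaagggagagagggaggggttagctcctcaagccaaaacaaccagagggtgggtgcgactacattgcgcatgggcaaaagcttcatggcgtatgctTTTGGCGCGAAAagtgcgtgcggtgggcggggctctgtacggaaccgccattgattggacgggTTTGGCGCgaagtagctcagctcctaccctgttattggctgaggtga
Mcm7: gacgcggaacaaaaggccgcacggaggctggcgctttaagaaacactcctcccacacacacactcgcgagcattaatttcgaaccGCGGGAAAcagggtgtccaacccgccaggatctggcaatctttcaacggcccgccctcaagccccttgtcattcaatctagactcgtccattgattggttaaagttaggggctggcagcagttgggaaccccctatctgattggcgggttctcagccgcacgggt
Mki67: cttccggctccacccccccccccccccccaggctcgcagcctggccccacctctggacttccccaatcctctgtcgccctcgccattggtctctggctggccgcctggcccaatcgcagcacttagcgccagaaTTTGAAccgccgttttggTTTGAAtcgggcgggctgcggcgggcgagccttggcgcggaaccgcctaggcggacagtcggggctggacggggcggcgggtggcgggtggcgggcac
Top2a: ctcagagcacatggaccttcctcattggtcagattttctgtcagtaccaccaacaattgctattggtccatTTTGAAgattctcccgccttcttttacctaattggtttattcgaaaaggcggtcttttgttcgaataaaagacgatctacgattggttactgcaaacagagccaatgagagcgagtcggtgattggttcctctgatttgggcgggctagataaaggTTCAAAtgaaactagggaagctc

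Mcm6 held 3 E2F matches, Mcm5 2 and Mcm7 1, and Mki67 and Top2a held 2 CHR matches each. Over 300-base windows, which add 50 bases after the start, 13 of the 16 lower genes had a promoter in the table: 5 held an E2F octamer (38.5%), 3 the CHR hexamer (23.1%) and 10 a CCAAT box, CCAAT on either strand (76.9%). Among 5915 tested genes with a promoter the shares were 4.72%, 14.5% and 43.1%. Among 47 of the 58 cell cycle members they were 21.3%, 42.6% and 70.2%. The called replication genes Prim1 and Rpa2 held a CCAAT box but no E2F octamer in these windows. The motifs were chosen after the called genes were known, and a match is a string of letters rather than a bound site.

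Cyclins, their inhibitors and damage response genes did not pass. Ccnd1, the G1 cyclin, read 10.58, 10.37 and 9.29 in KO livers on day 6 and 9.90 to 10.78 in KO lobes on day 0, against 10.17, 9.79 and 9.93 in control livers on day 6 and 8.78, 8.49 and 8.42 in control lobes. Control livers thus reached the range that KO liver held on both days, with an interaction of −1.74 ± 0.42 SE (limma adjusted p = 0.138). Cdkn1a, the p53 target that encodes the inhibitor p21, read 10.05, 8.34 and 9.29 in KO livers on day 6 and 6.83 to 10.03 in KO lobes, against 5.85, 8.48 and 9.24 in control livers on day 6 and 4.18, 3.89 and 5.01 in control lobes. The KO groups overlapped and the control groups did not, and the interaction of −2.43 ± 1.17 SE had a wide error (adjusted p = 0.692). Cdkn2c, an inhibitor of CDK4 and CDK6, had −2.45 ± 0.60 SE (adjusted p = 0.152; 0.0186 without control day 6 303). Of 16 tested cyclins and inhibitors 5 were lower at an unadjusted p under 0.05, of 17 p53 targets 4, and of 12 double-strand break genes 1, which is near the 5.13% of all genes, with medians of −0.26, −0.51 and −0.40. Aen, a p53-induced nuclease, had −1.17 ± 0.34 SE (adjusted p = 0.291; 0.0210 without KO day 6 332), and Brca1 had −1.88 ± 0.53 SE (adjusted p = 0.264).

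Interferon-stimulated genes contrasted with the cell cycle genes, since they were higher on day 6 in both genotypes. Of 29 tested, 0 passed for the interaction by limma and 0 had an unadjusted p under 0.05, with a median interaction of −0.45, from a median change of 2.15 in KO and 2.45 in control liver. All 29 changes were above 0 in each genotype. In KO liver 1 passed and in control liver 12, against 0.0834% and 2.84% of all genes passing as higher. At an unadjusted p under 0.05 by limma, 24 were higher in KO and 21 in control liver, against 245 and 819 of all 7191 genes. Oas1a, which makes the activator of RNase L, read 8.08, 10.26 and 6.60 in KO livers on day 6 and 2.94 to 4.93 in KO lobes on day 0, against 6.41, 9.61 and 6.57 in control livers on day 6 (mice 303, 392 and 393) and 3.27, 2.65 and 3.51 in control lobes. Neither genotype's days overlapped, and 1 liver of each, KO 332 and control 392, stood above its companions. Its interaction was 0.18 ± 1.16 SE (adjusted p = 0.986), an error that leaves room for a difference of more than 1 unit either way. The median interaction of the list was −0.97 with KO day 6 332 left out and 0.40 with KO day 6 337 left out, so its sign rested on single livers.

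In KO liver 6 genes passed between day 6 and day 0 (0.0834%), all higher, and none of them passed for the interaction. Besides Oas1a they were Rtp4, Ifi204 and Ifi209, all induced by interferon, Fgl2 (a fibrinogen-like immune regulator) and Adm (the vasodilator adrenomedullin); the 6 were named after their values were seen. Ifi209 read 7.25, 8.50 and 5.89 in KO livers on day 6 and 2.92 to 3.08 in KO lobes, against 5.27, 6.74 and 3.02 in control livers on day 6 and 2.83 to 3.03 in control lobes (KO change 4.22, limma adjusted p = 0.0470). Control mouse 393 alone of the 6 day 6 livers showed no rise over day 0 in that gene. The count was fragile: it was 0 when KO day 0 250, 254, 312 or 337, KO day 6 312, or control day 0 263, 265 or 303 was left out. Leaving out KO day 0 332 or KO day 6 332 gave 1 call each, none of them among the 6, and leaving out KO day 6 337 gave 13 calls, with 4 of the 6 among them. Leaving out KO day 0 258 gave 20 calls, control day 6 392 gave 13 and control day 6 393 gave 10, each including all 6. By contrast 293 genes passed in control liver (4.07%), 204 higher and 89 lower (1.24%). Leaving out control day 0 263, 265 or 303 gave 177, 99 or 134, control day 6 392 gave 107 and control day 6 393 gave 445. KO had 6 day 0 lobes and controls had 3.

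Of 29 tested macrophage genes and 26 acute phase genes, 0 passed for the interaction, and 2 and 3 of them were lower at an unadjusted p under 0.05 (5.13% of all genes were, and 2 of 29 is near that share). Marco, a scavenger receptor of Kupffer cells, read 3.79, 3.51 and 1.95 in KO livers on day 6 and 2.02 to 2.37 in KO lobes on day 0, against 10.83, 8.03 and 6.56 in control livers on day 6 (mice 303, 392 and 393) and 2.42 to 2.88 in control lobes. Only the control livers on day 6 exceeded log2 4, so Marco too was tested only through them. The interaction of −4.85 ± 0.99 SE did not pass (limma adjusted p = 0.0763) and passed once control day 6 303 (0.0117) or 393 (0.0105) was left out. The 4 Kupffer cell markers on the array, Marco among them, averaged 6.20 to 8.91 in KO livers on day 6 and 7.07 to 7.53 in KO lobes, against 8.17 to 10.57 in control livers on day 6 and 6.97 to 7.63 in control lobes. Their part in the other results was not tested. Mpeg1, a macrophage pore-forming protein, had −1.57 ± 0.47 SE (adjusted p = 0.324). Lcn2, an acute phase protein of injured liver, read 13.68, 13.55 and 13.52 in KO livers on day 6 and 10.08 to 14.14 in KO lobes, against 13.97, 13.87 and 10.60 in control livers on day 6 and 5.61, 3.06 and 9.75 in control lobes. Its day 6 levels overlapped between genotypes, and the interaction was −4.31 ± 1.88 SE (adjusted p = 0.666).

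Of 24 collagen and matrix genes and 27 cytoskeletal genes tested, 0 passed, and 5 and 7 of them were lower at an unadjusted p under 0.05, against 5.13% of all genes. The centred mean of the matrix list was 0.16 to 1.67 in KO livers on day 6 and 0.14 to 1.65 in KO lobes on day 0, against −1.13 to −0.66 in control livers on day 6 and −1.62 to −1.50 in control lobes. Col4a1, a basement membrane collagen, read 9.40, 9.99 and 10.24 in KO livers on day 6 and 8.65 to 10.64 in KO lobes on day 0, against 9.27, 8.99 and 8.27 in control livers on day 6 and 7.15, 5.77 and 6.70 in control lobes. Control livers moved towards the KO level (interaction −2.02 ± 0.61 SE, limma adjusted p = 0.324). Krt8, a keratin of hepatocytes, had −1.33 ± 0.31 SE (adjusted p = 0.125; 0.0482 without KO day 6 337), its partner Krt18 −1.23 ± 0.34 SE, and the intermediate filament gene Vim −1.83 ± 0.65 SE. Tubb6, a beta-tubulin, had −3.53 ± 0.83 SE (adjusted p = 0.128; 0.0117 without control day 6 303).

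Differences in the other direction were fewer. Dio1, the hepatic deiodinase that activates thyroid hormone, read 8.41, 8.36 and 8.70 in KO livers on day 6 and 6.74 to 7.67 in KO lobes on day 0, against 10.09, 10.66 and 9.40 in control livers on day 6 and 10.23, 10.76 and 10.62 in control lobes. It was higher on day 6 than on day 0 in KO liver without overlap, still below every control array, and the interaction of 1.81 ± 0.40 SE did not pass (limma adjusted p = 0.109; 0.0366 without control day 6 392). Cnmd, which encodes chondromodulin, read at or under log2 4 on all KO arrays and fell in control liver, to 5.58, 3.45 and 6.63 on day 6 against 8.32, 8.69 and 8.78 on day 0 (interaction 3.42 ± 0.72 SE, adjusted p = 0.0885; 0.0105 and 0.0215 with control day 6 393 or 392 left out). It passed the floor only through the control lobes, where it is high. Acot3, a PPAR alpha-induced peroxisomal thioesterase, had 3.52 ± 1.03 SE (adjusted p = 0.291; 0.0381 without control day 0 303). It too passed the floor only through the control lobes, and on day 6 all KO livers and all control livers lay under log2 4. Hlf, a clock-controlled transcription factor, had 1.71 ± 0.46 SE (adjusted p = 0.214; 0.0422 without KO day 0 250).

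Among 18 clock genes the median interaction was 0.99, from −0.40 in KO and −1.41 in control liver, and 0 passed for the interaction (2 were higher at an unadjusted p under 0.05). The list mean was −0.70, −0.17 and −0.29 in KO livers on day 6 and −0.62 to 0.50 in KO lobes on day 0, against 0.20, −0.88 and −0.58 in control livers on day 6 and 0.76, 0.86 and 0.73 in control lobes. Control lobes were tightly grouped and high, and KO lobes spread over more than 1 unit. The sources used here do not say at what time of day the samples were taken. The median ran from 0.68 with control day 6 392 left out to 1.46 with control day 6 303 left out.

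**Figure D5:**
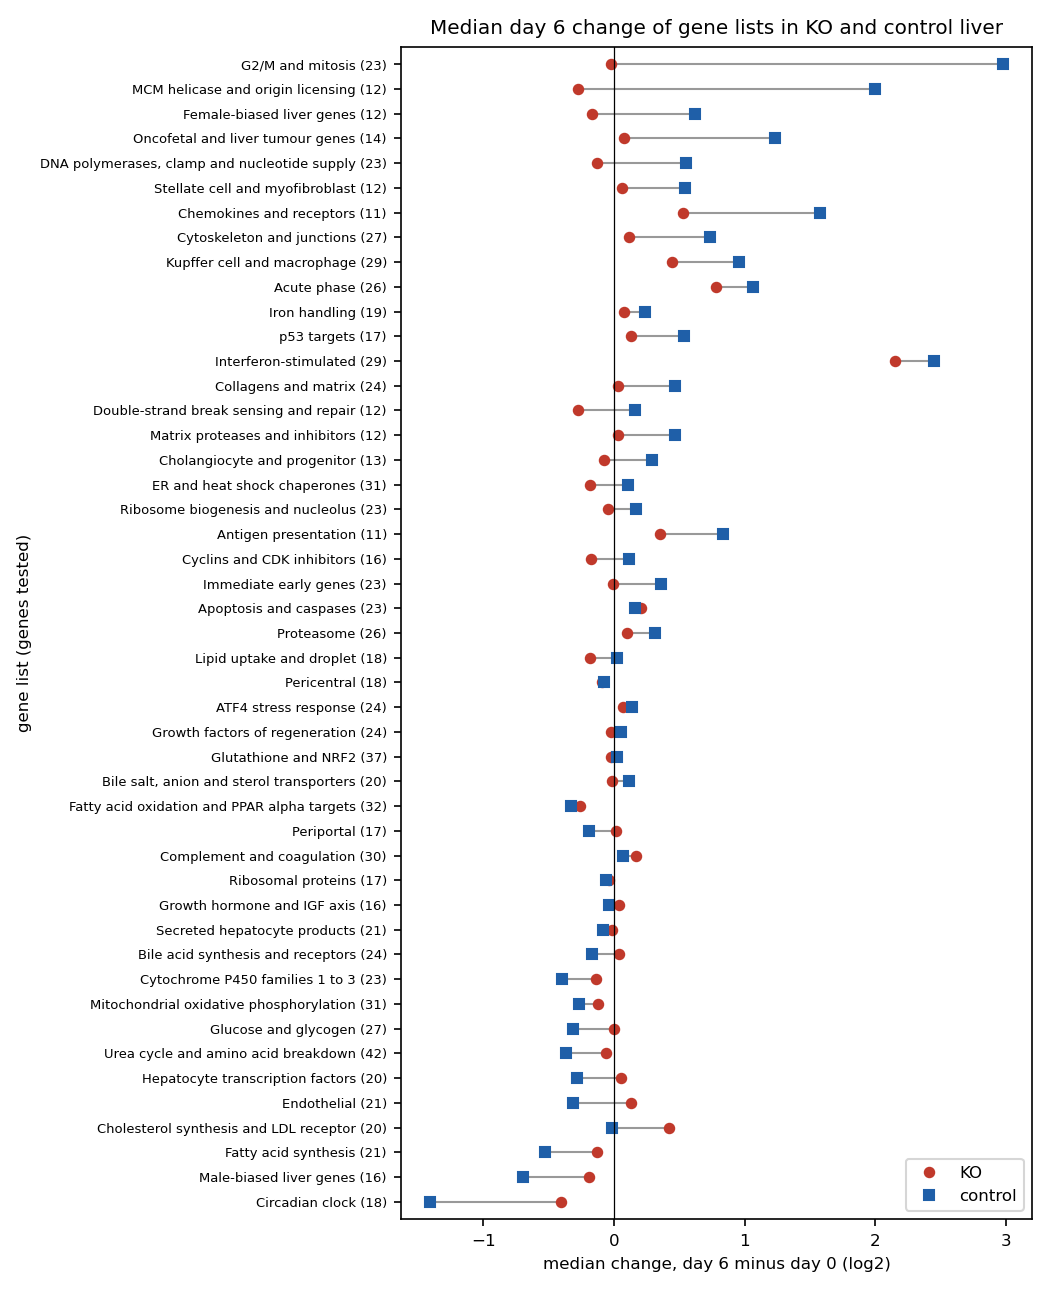
Median day 6 minus day 0 change (log2) of 47 gene lists with at least 10 tested genes, in KO liver (circles) and control liver (squares), ordered by median interaction. Mitosis and licensing have the widest gaps at the top, interferon-stimulated genes are high in both genotypes, and clock genes are at the bottom.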

How the data were processed

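Total RNA from liver was extracted with Trizol, labelled with biotin by a 3-prime IVT protocol and hybridised to mouse arrays, per the labels' protocols. The deposited log2 values were made by the authors with GCRMA, per the submitters' processing notes. The sources used here name no other upstream step. Values were kept as deposited. An array gives no molecule count, so the number of arrays limits the precision.

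Of 22690 probe sets, 20380 had 1 gene symbol in the platform annotation; the probe set with the highest mean over 21 arrays stood for each of 12393 genes. Genes above log2 4 on at least 3 of 15 arrays were tested (7191). Afp, Ccnb1, Spp1 and Trp53 were among those that did not pass. The 6 day 2 arrays were left out because they are not in the contrast and the control ones vary more widely. A model of 4 groups fitted with limma 3.58.1 under R 4.3.3 (lmFit, eBayes, 11 residual degrees of freedom) gave two-sided p-values, adjusted by Benjamini-Hochberg over the 7191 genes, threshold 0.05. List values are medians and counts over 54 hand-written lists. Figures used matplotlib 3.10.9 in Python 3.11.15.

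Groups and mouse numbers come from the sample titles. A shared number is the same animal, per the labels' design text; deviations from group means correlated at 0.123, 0.158, 0.0426 and −0.0545 for mice 303, 312, 332 and 337, against a median of −0.0126 for different mice.

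Genes were named by rule: Abcb4; in each direction the 15 largest interactions among called genes, filled up to 15 by smallest p where fewer were called; up to 4 called genes or 2 of smallest p per list; and a fixed set of liver and cell cycle genes. The contrast, lists and names were chosen with earlier results of these data known. Alternatives covered filters, probe sets, scaling, variance models, blocks, RNA quality and left-out arrays.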

Additional observations from a re-analysis of the deposited data

Results flagged for a closer look

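The 17 called interactions are each a tested difference between the day 6 change in KO and in control liver, on the log2 scale. They were −4.42 for Mcm6, −3.97 for Mki67, −3.75 for Stmn1, −3.40 for Top2a, −3.25 for Mcm5, −3.20 for Smc2, −3.18 for Prim1 and −2.60 for Acot9. They were −2.44 for Rfc4, −2.31 for Mcm7, −2.27 for Lgals1, −2.25 for Pclaf, −2.11 for Rpa2, −1.71 for Dnajc9, −1.66 for Cyb5r1 and −1.46 for Kifc3, and 1.64 for Klf1.

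Among the 6 KO lobes on day 0, 54 named genes and 5 list means were examined for a sample far from its companions. Of these 59 sets 3 had one, which is near the share that chance gives, about 1 in 20. Top2a read 3.97 in mouse 332, against 2.94 to 3.21 in the other 5 lobes. Col1a1, the main fibrillar collagen gene, read 9.90 in mouse 258, against 5.51 to 7.03 in the others. Acot3 read 5.26 in mouse 250, against 3.20 to 3.61 in the others.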

How the results depend on the processing

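Over 30 alternatives, of which 15 left out 1 array each, the count of genes with a called interaction (17) lay between 7 and 50 over the left-out arrays. It was 10 with a floor of log2 6, 36 with array weights, 9 with KO day 0 taken from the 3 mice sampled again, 6 without both arrays of mouse 337, 33 without both arrays of mouse 303 and 0 with the mouse in a fixed replicate block, where 2 residual degrees of freedom remained. The KO count (6) lay between 0 and 20 over the left-out arrays. It was 0 with no floor, with probe sets averaged per gene, with every probe set, with quantile normalization, with median centring, with trend and robust, with the actin covariate, without mouse 303 and with the fixed replicate block (614 at an unadjusted p under 0.05). It was 1 with a floor of log2 6, 11 with array weights, 10 with all 6 groups, 3 with KO day 0 from the same mice and 10 without mouse 337. The control count (293) lay between 99 and 445 over the left-out arrays and was 452 with array weights, 168 without mouse 303 and 0 with the fixed replicate block (755 at an unadjusted p under 0.05). The random replicate block (correlation 0.104) gave 20, 6 and 344 calls. Median centring turned the control split of 204 higher and 89 lower into 179 and 121. Beyond these the causes were not tested.

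The 17 called interactions kept their sign under each alternative that gave a value. Reversed signs among the other named genes were Cdkn1a at 0.11 and the interferon-induced protease Usp18 at 0.077 with the fixed replicate block, Rtp4 at −0.12 with array weights and −0.23 to 1.17 over the left-out arrays, and Oas1a at −0.48 with array weights, −0.08 with KO day 0 from the same mice, −0.23 with the actin covariate, −0.56 without mouse 303 and −0.79 to 1.22 over the left-out arrays.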

Other observations

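Fatty acid and secretory genes showed values that no comparison above used. Thrsp, a regulator of fatty acid synthesis, read 10.97, 11.14 and 11.62 in KO livers on day 6 and 9.04 to 12.09 in KO lobes on day 0, against 12.89, 8.58 and 11.06 in control livers on day 6 (mice 303, 392 and 393) and 13.51, 13.46 and 13.73 in control lobes. Its interaction was 3.39 ± 1.26 SE (limma adjusted p = 0.529). Over 21 fatty acid synthesis genes the median interaction was 0.59, and 0 passed, 2 being higher at an unadjusted p under 0.05. Hsd17b7, an enzyme of cholesterol synthesis, had 2.24 ± 0.62 SE (adjusted p = 0.246), and over 20 cholesterol synthesis genes the median was 0.42. Serpina12, the adipokine vaspin, had 1.41 ± 0.44 SE (adjusted p = 0.341).

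Abcb1b, a multidrug transporter related to Abcb4, read 7.03, 5.88 and 7.23 in KO livers on day 6 and 7.26 to 7.90 in KO lobes on day 0, against 4.16, 4.23 and 4.96 in control livers on day 6 and 3.66, 4.08 and 3.13 in control lobes. The KO livers lay below all KO lobes and the control livers above all control lobes, with an interaction of −1.65 ± 0.44 SE that did not pass (adjusted p = 0.217). Hpx, the haem-binding acute phase protein, had −0.50 ± 0.17 SE (adjusted p = 0.397). Arid5b, a chromatin regulator, had 2.04 ± 0.45 SE (adjusted p = 0.11), with control livers on day 6 at 2.92 to 3.87 against 4.79 to 6.01 in control lobes.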
